A study of Mus musculus with 6 samples.

Results

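The glycolysis and hypoxia response genes are a list of 34 genes that covers glucose uptake, the enzymes of glycolysis, lactate handling and genes that respond to low oxygen. A gene was followed through the probe sets that name it alone, and its value was the mean log2 ratio over those probe sets. Of the 34 genes, 32 had such a probe set and 31 entered the test, among 18193 genes tested in all. Gapdh was measured by 3 control probe sets of the array, which stood outside the test, and Gpi1 and Eno1 had no probe set that names them alone.

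The study set developing heart valves of the mouse beside an osteoblast progenitor cell line, on 6 Affymetrix 430 2.0 arrays. E17.5 valves were atrioventricular valves dissected from wild-type FVB/N embryos at embryonic day 17.5, when the leaflets are being remodelled (2 arrays). E12.5 cushions were atrioventricular cushions of the same strain at embryonic day 12.5, the swellings of matrix and mesenchyme from which the valves form (2 arrays). MC3T3 cells were subclone 4 of MC3T3-E1, an established osteoblast progenitor line grown in vitro (2 arrays). No sample was treated, and every array carried pooled RNA, so the spread between the 2 arrays of a group is that between pools, and 2 arrays a group limit the precision of each value.

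Glycolysis splits glucose into pyruvate in the cytosol, and lactate dehydrogenase turns pyruvate into lactate, which leaves the cell through monocarboxylate transporters. When oxygen is scarce, prolyl hydroxylases stop marking the transcription factor HIF-1α for destruction, and the factor then raises many genes of glucose uptake and glycolysis together with survival, vessel and feedback genes. The embryonic heart relies on glycolysis early and moves towards oxidative metabolism later in development.

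The deposited values are ratios: every probe set was divided by its median over the 4 valve arrays, so 0 on the log2 scale is that median. They show how a gene differs between samples and hold no level that could be set against another gene. The median log2 ratio of the 31 genes was -0.03 and -0.11 in the E17.5 pools, 0.05 and 0.10 in the E12.5 pools and -0.89 and -0.87 on the MC3T3 arrays. The same median over all genes tested was -0.05 and -0.06 in the E17.5 pools, 0.08 and 0.04 in the E12.5 pools and 0.07 on each MC3T3 array. The set therefore lay below the other arrays in MC3T3 cells, while the array as a whole did not. Between the 2 arrays of a group, the median absolute difference of the 31 genes was 0.118 at E17.5, 0.0959 at E12.5 and 0.0368 in MC3T3 cells on the log2 scale, and no gene of the set differed by 2-fold between replicates.

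**Figure D1:**
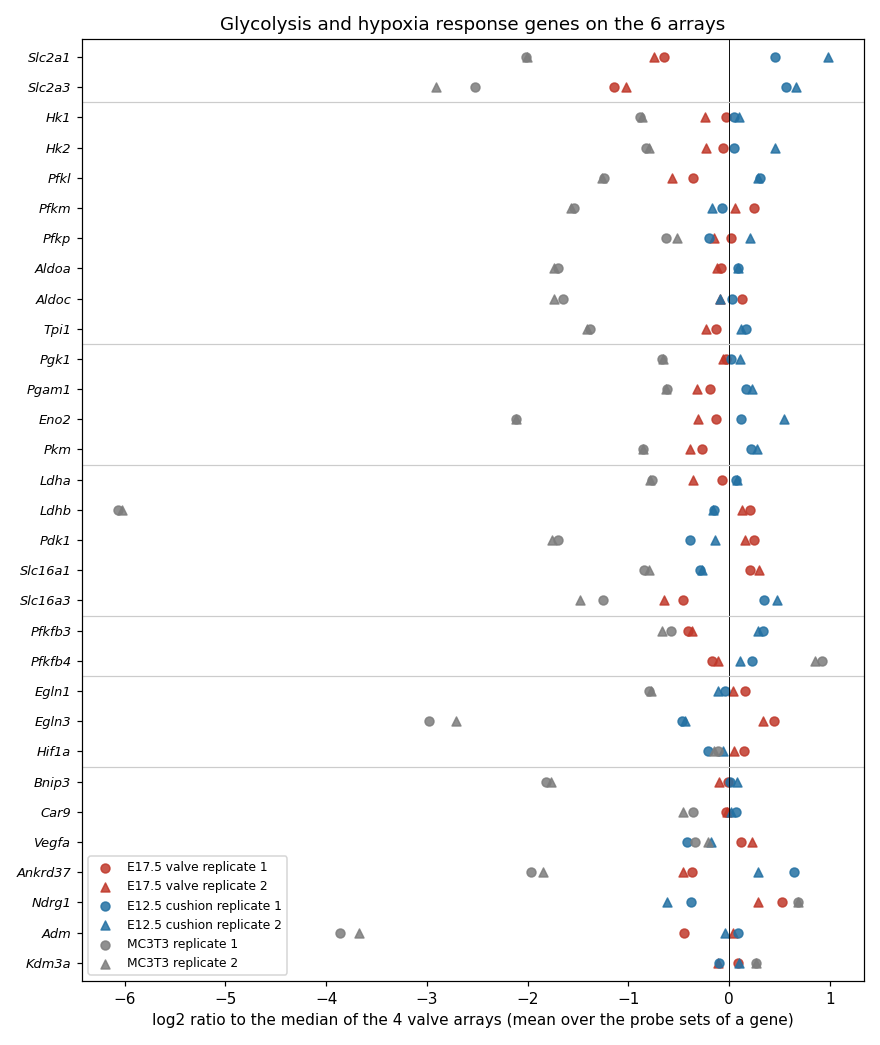
Log2 ratio to the median of the 4 valve arrays (horizontal axis) of the 31 tested genes (rows, grouped by role) on the 6 arrays; circles are replicate 1 and triangles replicate 2. Most genes lie near 0 on the valve arrays and to the left in MC3T3 cells, with Ldhb at -6.07 and -6.03, while Pfkfb4, Ndrg1 and Kdm3a lie to the right in MC3T3 cells.

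Against MC3T3 cells the set stood higher in both valve tissues. Called genes had a Benjamini-Hochberg adjusted p below 0.05 over all genes tested, from limma, and at least a 2-fold difference. In E17.5 valve against MC3T3 cells, 14 of 31 genes were called higher (45.2%), where 9.78 percent of all genes tested were called higher. A single gene was called lower, Pfkfb4 (3.23%, where 7.94 percent of all genes tested were called lower), and 16 were not called; either way, 17.7 percent of all genes tested were called. In E12.5 cushion against MC3T3 cells, 17 genes were called higher (54.8%, beside 10.2 percent of all genes tested), 1 was called lower, Ndrg1 (3.23%, beside 10.8 percent of all genes tested), and 13 were not called; either way, 21.1 percent of all genes tested were called. By the adjusted p alone, 27 genes were higher (21.3 percent of all genes tested were) and 2 lower (38.8 percent) in E17.5 valve, and 26 were higher (29.4 percent of all genes tested were) and 2 lower (28.3 percent) in E12.5 cushion. The median difference over the 31 genes was 0.82 in the E17.5 comparison, where that over all genes tested was -0.15. In the E12.5 comparison it was 1.11, where that over all genes tested was 0.01. Both comparisons use the same MC3T3 arrays.

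Between the valve stages the set moved little. Both glucose transporters were called lower at E17.5, which is 6.45% of the 31 genes, where 1.84 percent of all genes tested were called lower. No gene of the set was called higher, where 4.67 percent of all genes tested were called higher and 6.51 percent were called either way. By the adjusted p alone, without the fold requirement, 7 genes were higher (19.3 percent of all genes tested were) and 13 lower (34.2 percent of all genes tested were), most of them by less than 2-fold. The median difference was -0.19 over the 31 genes and -0.14 over all genes tested, so the set lay close to the array as a whole. In pooled tissue, fewer cells of a type and less RNA per cell cannot be told apart, here and in every comparison that follows.

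**Figure D2:**
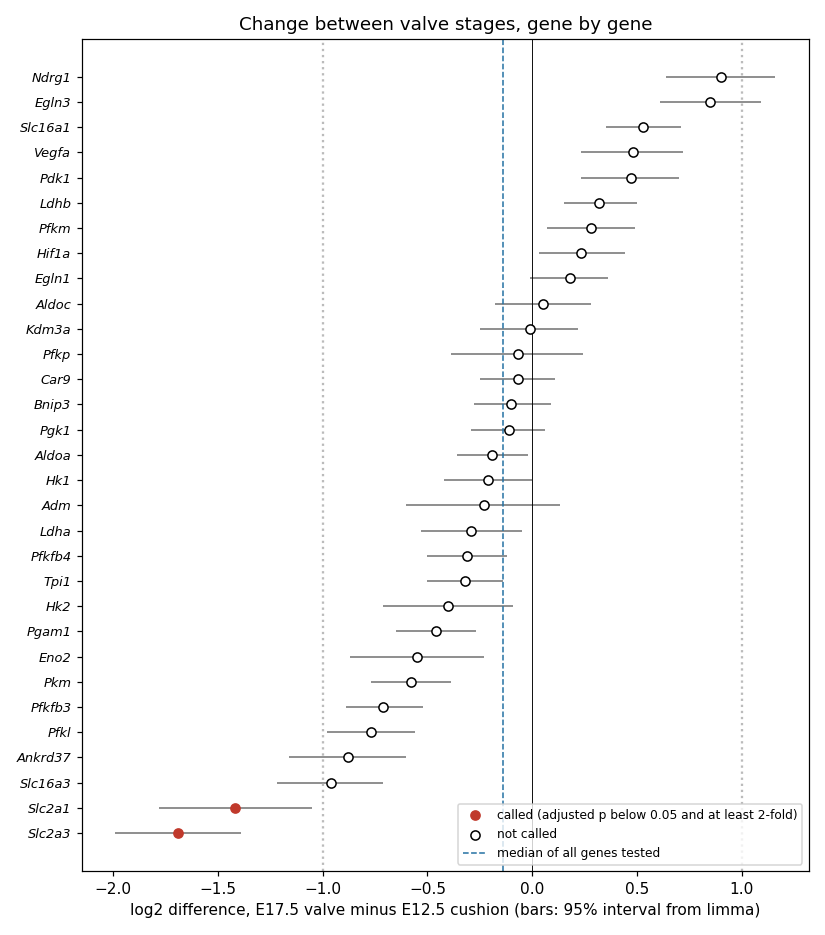
Log2 difference of E17.5 valve minus E12.5 cushion for each of the 31 genes, with 95% intervals from limma; the dashed line is the median of all genes tested and the dotted lines mark a 2-fold difference. Slc2a3 and Slc2a1 lie beyond the dotted line on the left, Ndrg1 and Egln3 come nearest to that on the right, and the remaining genes lie between them.

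HIF factors bind DNA at a short core, ACGTG, and promoter windows are shown for a few genes picked from the set. Slc2a1 was called between the stages, and Slc16a3 and Ankrd37 lay just under 2-fold there. Bnip3 and Ldhb were called against MC3T3 cells, and Ldha was under 2-fold against them. Of called genes whose windows are not shown, Adm, Eno2, Tpi1, Aldoc, Pdk1, Pfkl and Pfkfb4 had no ACGTG. Aldoa, Pfkm, Hk2, Egln3, Pkm and Slc16a1 had it in a window. The windows shown therefore do not stand for the called genes. RefSeq windows of the 250 bases before the start site (build GRCm38.p6) were at hand for 32 of the 34 genes and not for Slc2a3 and Ndrg1. They are printed 5′ to 3′ on the strand of the gene, with each ACGTG, read on either strand, in capitals; the palindrome CACGTG holds the core on both strands, so its 2 matches overlap.
Slc2a1 (chr4:119108495-119108744, plus strand): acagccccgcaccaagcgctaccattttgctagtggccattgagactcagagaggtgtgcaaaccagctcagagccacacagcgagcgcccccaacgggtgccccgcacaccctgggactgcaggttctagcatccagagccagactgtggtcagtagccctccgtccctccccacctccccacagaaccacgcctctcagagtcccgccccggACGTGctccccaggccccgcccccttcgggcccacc
Slc16a3 (chr11:120948817-120949066, plus strand): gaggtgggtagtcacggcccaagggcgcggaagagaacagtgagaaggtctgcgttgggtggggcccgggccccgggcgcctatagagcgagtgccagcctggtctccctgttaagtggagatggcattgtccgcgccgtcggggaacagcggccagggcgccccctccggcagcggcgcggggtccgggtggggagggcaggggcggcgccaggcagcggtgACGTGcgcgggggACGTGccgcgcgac
Ankrd37 (chr8:45999851-46000100, minus strand): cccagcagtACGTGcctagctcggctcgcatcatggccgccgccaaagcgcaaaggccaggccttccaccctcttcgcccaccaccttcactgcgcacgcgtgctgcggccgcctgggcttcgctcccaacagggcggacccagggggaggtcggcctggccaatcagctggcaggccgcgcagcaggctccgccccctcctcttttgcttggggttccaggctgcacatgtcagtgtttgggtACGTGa
Bnip3 (chr7:138909507-138909756, minus strand): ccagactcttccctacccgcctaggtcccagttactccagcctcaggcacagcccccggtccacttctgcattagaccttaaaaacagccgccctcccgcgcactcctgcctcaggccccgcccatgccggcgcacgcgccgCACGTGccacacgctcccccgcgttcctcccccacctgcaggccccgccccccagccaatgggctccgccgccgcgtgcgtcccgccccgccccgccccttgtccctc
Ldha (chr7:46845554-46845803, plus strand): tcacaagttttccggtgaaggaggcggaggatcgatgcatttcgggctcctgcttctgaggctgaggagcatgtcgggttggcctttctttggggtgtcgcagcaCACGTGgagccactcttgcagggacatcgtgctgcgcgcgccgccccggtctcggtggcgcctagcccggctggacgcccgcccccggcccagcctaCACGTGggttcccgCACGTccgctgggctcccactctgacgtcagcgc
Ldhb (chr6:142507958-142508207, minus strand): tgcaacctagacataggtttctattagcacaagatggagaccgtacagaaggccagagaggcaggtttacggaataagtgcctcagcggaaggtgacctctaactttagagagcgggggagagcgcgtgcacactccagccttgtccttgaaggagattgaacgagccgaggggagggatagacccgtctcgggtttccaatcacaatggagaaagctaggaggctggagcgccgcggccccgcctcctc
The core stood in at least 1 window of 18 of the 32 genes (56.2%), against 22.5% of the 14452 tested genes with a window. The set was drawn from genes of glycolysis and of the response to low oxygen, many of which HIF raises. A higher share of the core in it is therefore not a finding about these samples. By window, the shares were 43.8% of 48 windows of the set, 19.5% of 18109 windows of the tested genes and 16.6% of all 32851 windows of that length in the table. The windows of the set had a median GC content of 60%, against 57.6% for the tested genes and 52.4% for all windows, and a motif that holds CG is more frequent in GC-rich sequence. GCGTG, the other letter at the first position of the known HIF core, was found in 65.6% of the genes of the set, against 42.5% of the tested genes. In the windows shown, the core begins 36 bases before the start in Slc2a1, 27 and 14 bases before it in Slc16a3, and 241 and 6 bases before it in Ankrd37. Ldha has 2 windows in the table, and the one shown has 5 matches, while the other, at chr7:46846832-46847081 on the plus strand, has none. Bnip3 has 2 matches on the same CACGTG, and the Ldhb window has none. These counts are of ACGTG alone, and the Ldhb window and the Ldha window without a match each hold GCGTG. These matches describe letters in a window and were read from the reference genome, not measured on the arrays.

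Glucose enters cells through the transporters Slc2a1 (GLUT1) and Slc2a3 (GLUT3), and these were the genes of the set that fell by 2-fold or more between the stages. Slc2a1 had log2 ratios of -0.65 and -0.75 in E17.5 valve, 0.45 and 0.98 in E12.5 cushion and -2.02 and -2.01 in MC3T3 cells. The 3 groups did not overlap, with cushion highest and MC3T3 cells lowest. Slc2a1 was 2.67-fold lower in E17.5 valve than in E12.5 cushion (log2 difference -1.42 ± 0.16, SE, n = 2 arrays a group here and throughout; limma adjusted p = 0.000298). All 3 of its probe sets gave nearly the same stage difference, -1.37, -1.41 and -1.48. It was 2.48-fold higher in E17.5 valve (adjusted p = 0.000195) and 6.62-fold higher in cushion (adjusted p = 2.62e-06), each relative to MC3T3 cells. The 2 cushion arrays differed by 0.53 for Slc2a1, more than any other pair of replicates in the set.

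Slc2a3 had log2 ratios of -1.14 and -1.02 in E17.5 valve, 0.56 and 0.66 in E12.5 cushion and -2.52 and -2.91 in MC3T3 cells, again with no overlap. It was 3.23-fold lower in E17.5 valve than in E12.5 cushion (log2 difference -1.69 ± 0.13, adjusted p = 7.05e-05), and its 4 probe sets gave stage differences of -1.18, -1.62, -1.97 and -2.00. Against MC3T3 cells the probe sets parted. For E17.5 valve minus MC3T3 they gave -0.23, 0.21, 3.12 and 3.45, so the mean of 1.64 (adjusted p = 1.81e-05) stood for 2 probe sets near 0 and 2 with a large difference. Without the probe sets that the array maker marks as matching several transcripts, the E17.5 difference was -0.01 (adjusted p = 0.954), and the call was lost. For E12.5 cushion minus MC3T3 all 4 probe sets were above 0, at 0.95, 1.82, 5.09 and 5.45, with a mean of 3.33 (adjusted p = 3.35e-07).

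Red blood cells carry glucose transporters, and markers of that lineage also differed between the stages. Of 10 erythroid markers tested, 6 were called lower at E17.5 and none higher, where 1.84 and 4.67 percent of all genes tested were. The largest falls were those of the embryonic globins Hbb-bh1 (-7.52), Hba-x (-6.58) and Hbb-y (-3.70). Klf1 (-1.88), Gata1 (-1.37) and Slc4a1 (-1.31) were also called lower. Of the 4 markers not called, Epor lay lower at E17.5 (-0.48 and -0.44) than at E12.5 (0.70 and 0.34). Alas2 lay higher at E17.5 (0.18 and 0.03) than at E12.5 (-0.03 and -1.46). Hemgn and Tspo2 overlapped between the stages. The count is not a measure of red cell content. The median log2 ratio of the 10 markers was -0.41 and -0.76 in the E17.5 pools and 1.15 and 0.31 in the E12.5 pools. On the MC3T3 arrays it was -4.21 and -4.15. On the first and second E12.5 arrays, Slc2a1 was 0.45 and 0.98 and Slc2a3 0.56 and 0.66. A difference between 2 pools of a stage cannot show which cells carried the transporters. Valve and cushion mesenchyme markers were also mostly lower at E17.5 (7 of 12 lower, 1 higher), and cardiomyocyte markers were higher (6 of 16 higher, none lower). The part of these cell types in the transporter differences was not tested.

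Enzymes that turn glucose into triose phosphates stood above MC3T3 cells in both valve tissues, by 2-fold or more for some, and none was called between the stages. Hexokinases Hk1 and Hk2 trap glucose as its phosphate, the phosphofructokinases Pfkl, Pfkm and Pfkp commit it to glycolysis, aldolases Aldoa and Aldoc split the resulting sugar, and Tpi1 interconverts its products. Between the stages the 8 differences lay between -0.77 (Pfkl) and 0.28 (Pfkm). Against MC3T3 cells, 4 of the 8 were called higher in E17.5 valve and 6 of the 8 in E12.5 cushion. Over all genes tested, 9.78 and 10.2 percent were called higher. None of the 8 was called lower in either, where 7.94 and 10.8 percent of all genes tested were.

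Aldoa had log2 ratios of -0.08 and -0.12 in E17.5 valve, 0.09 in each E12.5 cushion array and -1.70 and -1.74 in MC3T3 cells. It was 3.07-fold higher in E17.5 valve relative to MC3T3 cells (log2 difference 1.62 ± 0.07, adjusted p = 7.61e-07) and 3.51-fold higher in E12.5 cushion relative to MC3T3 cells (1.81 ± 0.07, adjusted p = 4.09e-07). The valve arrays lay within a narrow band well above both MC3T3 arrays. Tpi1 had log2 ratios of -0.13 and -0.23 in E17.5 valve, 0.17 and 0.12 in E12.5 cushion and -1.38 and -1.41 in MC3T3 cells, a 2.33-fold difference at E17.5 and a 2.91-fold difference at E12.5. Between the stages Tpi1 fell by 0.32 (adjusted p = 0.0105), under the 2-fold requirement.

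Pfkm, the phosphofructokinase that predominates in muscle, had log2 ratios of 0.25 and 0.06 in E17.5 valve, -0.07 and -0.17 in E12.5 cushion and -1.54 and -1.57 in MC3T3 cells. It was 3.28-fold higher in E17.5 valve (adjusted p = 1.85e-06) and 2.70-fold higher in E12.5 cushion (adjusted p = 4.57e-06), each against MC3T3 cells. Pfkl, which predominates in liver, ran the other way between the stages, with a difference of -0.77 ± 0.09 (adjusted p = 0.000372). Its difference from MC3T3 cells was 0.79 in E17.5 valve, which was not called, and 1.55 in E12.5 cushion, which was. Pfkp, the platelet isozyme, was not called in any comparison, at 0.51 in E17.5 valve and 0.58 in E12.5 cushion against MC3T3 cells.

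Aldoc, an aldolase best known from brain, had log2 ratios of 0.13 and -0.09 in E17.5 valve, 0.03 and -0.09 in E12.5 cushion and -1.65 and -1.74 in MC3T3 cells. The call against MC3T3 cells (1.71 ± 0.10 at E17.5 and 1.66 ± 0.10 at E12.5) came from 1 of its 2 probe sets, since in E12.5 cushion minus MC3T3 one gave 0.00 and the other 3.33. Hk2 was called at E12.5 against MC3T3 cells (1.07 ± 0.13, adjusted p = 0.000208), but without the second cushion array the difference was 0.87 and the call was lost. Hk1 was not called against MC3T3 cells, at 0.75 in E17.5 valve and 0.96, just under the requirement, in E12.5 cushion.

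**Figure D3:**
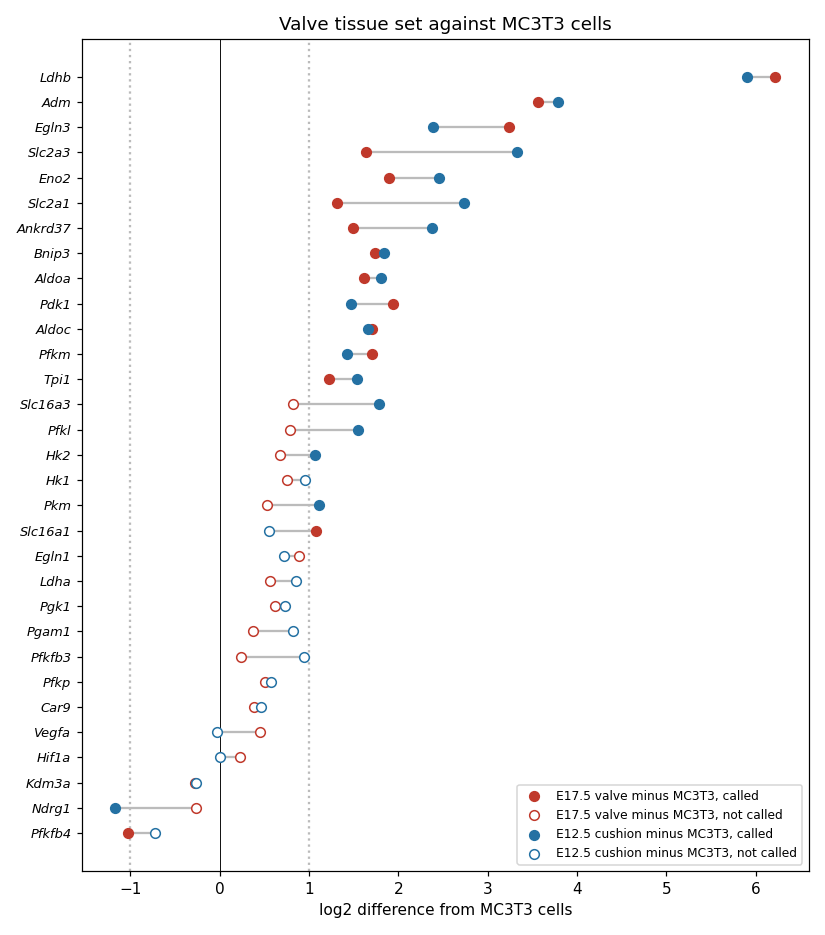
Log2 difference of E17.5 valve (red) and E12.5 cushion (blue) from MC3T3 cells for each of the 31 genes, joined by a line; filled points are called and dotted lines mark a 2-fold difference. Ldhb stands apart at 6.22 and 5.90, most genes lie between 0 and 4, and Ndrg1, Pfkfb4 and Kdm3a lie to the left of 0 in both; the comparisons share the MC3T3 arrays.

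Of the enzymes from trioses to pyruvate, 1 of the 4 tested was called higher in E17.5 valve and 2 of the 4 in E12.5 cushion, each against MC3T3 cells, and none was called between the stages. Gapdh oxidises the triose, Pgk1 makes ATP from its product, Pgam1 moves the phosphate, enolase makes phosphoenolpyruvate and Pkm makes pyruvate. Gapdh, averaged over its 3 control probe sets, had log2 ratios of -0.06 and -0.19 in E17.5 valve, 0.08 and 0.06 in E12.5 cushion and -0.44 and -0.57 in MC3T3 cells. The MC3T3 arrays were the lowest, and the stages differed by -0.15 to -0.21 across the 3 probe sets. With control probe sets kept in the test, a setting added after the values were seen, the Gapdh difference was 0.38 in E17.5 valve (adjusted p = 0.00609) and 0.57 in E12.5 cushion (adjusted p = 0.000639) against MC3T3 cells, short of 2-fold in each. Gapdh is often used to scale other transcripts, and here it differed between tissue and cell line.

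Eno2, the enolase best known from neurons, had log2 ratios of -0.13 and -0.31 in E17.5 valve, 0.12 and 0.54 in E12.5 cushion and -2.12 on each MC3T3 array. It was 3.73-fold higher in E17.5 valve (adjusted p = 1.08e-05) and 5.45-fold higher in E12.5 cushion (adjusted p = 2.32e-06) than in MC3T3 cells. Pkm had log2 ratios of -0.27 and -0.39 in E17.5 valve, 0.22 and 0.28 in E12.5 cushion and -0.86 on each MC3T3 array, so the groups did not overlap. Against MC3T3 cells it was 0.53 higher in E17.5 valve (adjusted p = 0.000693), which was not called, and 1.11 ± 0.08 higher in E12.5 cushion (adjusted p = 8.79e-06), which was. Between the stages Pkm fell by 0.58 (adjusted p = 0.000792), which is under 2-fold. Pgk1 and Pgam1 were not called in any comparison, with differences from MC3T3 cells between 0.37 and 0.82.

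Among the genes of pyruvate and lactate, Ldhb stood apart from the rest of the set. Ldha and Ldhb encode the subunits of lactate dehydrogenase; Ldha predominates in glycolytic tissue and Ldhb in heart muscle. Ldhb had log2 ratios of 0.21 and 0.13 in E17.5 valve, -0.15 and -0.16 in E12.5 cushion and -6.07 and -6.03 in MC3T3 cells. The deposited ratios stop at 0.01 (-6.64 on the log2 scale), and 1 of the 4 Ldhb probe sets was at that floor on both MC3T3 arrays, so its difference is a lower bound. Ldhb was at least 74.6-fold higher in E17.5 valve (6.22 ± 0.08, adjusted p = 2.27e-09) and at least 59.6-fold higher in E12.5 cushion (5.90 ± 0.08, adjusted p = 2.57e-09) than in MC3T3 cells. The 4 probe sets ranged from 5.14 to 6.51 for E12.5 cushion, so each showed the difference.

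Ldha had log2 ratios of -0.07 and -0.36 in E17.5 valve, 0.07 and 0.08 in E12.5 cushion and -0.77 and -0.79 in MC3T3 cells. MC3T3 cells were the lowest, with differences of 0.56 ± 0.10 for E17.5 valve (adjusted p = 0.00216) and 0.85 ± 0.10 for E12.5 cushion (adjusted p = 0.000186), both under 2-fold. Between the stages Ldha fell by 0.29 (adjusted p = 0.0476) and Ldhb rose by 0.32 (adjusted p = 0.00875), each by less than 2-fold. Cardiomyocyte markers were the marker list with the widest gap from MC3T3 cells. Their median log2 ratio was 0.25 on each E17.5 array, -0.32 and -0.29 in the E12.5 pools and -6.50 and -6.48 on the MC3T3 arrays, and 15 of 16 had a value at the floor in MC3T3 cells. Their part in the Ldhb difference was not tested.

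Pdk1, a kinase that holds back the pyruvate dehydrogenase complex and so keeps pyruvate from the mitochondria, had log2 ratios of 0.25 and 0.16 in E17.5 valve, -0.39 and -0.14 in E12.5 cushion and -1.70 and -1.76 in MC3T3 cells. It was 3.83-fold higher in E17.5 valve (adjusted p = 1.61e-06) and 2.77-fold higher in E12.5 cushion (adjusted p = 6.73e-06) than in MC3T3 cells. One of its 4 probe sets ran the other way, at -0.43 for E17.5 valve and -0.23 for E12.5 cushion, while another gave 3.98 and 2.82. The 2 monocarboxylate transporters of the set moved in opposite directions between the stages. Slc16a3 (MCT4), which exports lactate from glycolytic cells, fell by 0.96 (adjusted p = 0.000341), just under 2-fold, and passed it without the first E12.5 array (-1.02) or the first E17.5 array (-1.06). Slc16a1 (MCT1), which carries lactate either way, rose by 0.53 (adjusted p = 0.00102). Against MC3T3 cells, Slc16a3 was not called at E17.5 (0.82) and was called at E12.5 (1.78), and Slc16a1 was called at E17.5 (1.08) and not at E12.5 (0.55).

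Pfkfb3 and Pfkfb4 make and break fructose 2,6-bisphosphate, the metabolite that turns phosphofructokinase on. Pfkfb4 had log2 ratios of -0.17 and -0.11 in E17.5 valve, 0.23 and 0.11 in E12.5 cushion and 0.92 and 0.85 in MC3T3 cells, where it was highest. It was called lower in E17.5 valve than in MC3T3 cells (-1.03 ± 0.08, 2.04-fold, adjusted p = 1.95e-05). That call lay at the edge of the fold requirement: the difference was -0.99 without the first MC3T3 array and -0.90 with every array centred on its median, and each of these ended the call, as did leaving out the first E17.5 array. Pfkfb3 fell by 0.71 between the stages (adjusted p = 0.000297), under 2-fold, and differed from MC3T3 cells by 0.24 in E17.5 valve and 0.94 in E12.5 cushion.

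The oxygen sensing genes differed from one another. Hif1a, the oxygen-regulated subunit of HIF-1, had log2 ratios of 0.15 and 0.05 in E17.5 valve, -0.21 and -0.06 in E12.5 cushion and -0.11 and -0.15 in MC3T3 cells. The cushion and MC3T3 arrays overlapped, and the E17.5 arrays lay slightly above them. Its difference was 0.23 ± 0.09 between the stages (adjusted p = 0.0531, 95% interval 0.03 to 0.44), 0.00 ± 0.09 for E12.5 cushion minus MC3T3 (adjusted p = 0.978, -0.21 to 0.20) and 0.23 ± 0.09 for E17.5 valve minus MC3T3 (adjusted p = 0.0507, 0.03 to 0.43). The protein, which is the oxygen-regulated form, was not measured.

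Egln3, a prolyl hydroxylase that HIF itself induces, had log2 ratios of 0.44 and 0.34 in E17.5 valve, -0.47 and -0.44 in E12.5 cushion and -2.98 and -2.71 in MC3T3 cells, with no overlap. It was 9.42-fold higher in E17.5 valve (3.24 ± 0.10, adjusted p = 1.15e-07) and 5.24-fold higher in E12.5 cushion (2.39 ± 0.10, adjusted p = 5.72e-07) than in MC3T3 cells. Its 2 probe sets gave 2.26 and 4.21 for E17.5 valve and 1.3 and 3.48 for E12.5 cushion, each against MC3T3 cells. Between the stages Egln3 rose by 0.85 (adjusted p = 0.000463), under 2-fold. Egln1, the main prolyl hydroxylase in most tissues, had log2 ratios of 0.16 and 0.04 in E17.5 valve, -0.04 and -0.11 in E12.5 cushion and -0.80 and -0.78 in MC3T3 cells. Egln1 was 0.89 higher in E17.5 valve (adjusted p = 3.65e-05) and 0.72 higher in E12.5 cushion (adjusted p = 0.000108) than in MC3T3 cells, both under 2-fold. Centring every array brought the E17.5 difference of Egln1 to 1.02, past the requirement.

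Genes induced by hypoxia had no common direction. Adm, a vasodilator peptide, had log2 ratios of -0.45 and 0.04 in E17.5 valve, 0.09 and -0.04 in E12.5 cushion and -3.86 and -3.67 in MC3T3 cells. It was 11.8-fold higher in E17.5 valve (adjusted p = 6.23e-07) and 13.9-fold higher in E12.5 cushion (adjusted p = 4.31e-07) than in MC3T3 cells, second in size to Ldhb in each comparison, and the stages overlapped. Bnip3, a mitochondrial protein of mitophagy and cell death, had log2 ratios of -0.01 and -0.10 in E17.5 valve, 0.01 and 0.08 in E12.5 cushion and -1.82 and -1.77 in MC3T3 cells. Its difference from MC3T3 cells was 1.74 ± 0.08 at E17.5 and 1.84 ± 0.08 at E12.5.

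Ankrd37, an ankyrin repeat protein known as a HIF target, had log2 ratios of -0.37 and -0.46 in E17.5 valve, 0.64 and 0.29 in E12.5 cushion and -1.97 and -1.85 in MC3T3 cells. It was 2.81-fold higher in E17.5 valve and 5.19-fold higher in E12.5 cushion relative to MC3T3 cells (adjusted p = 2.02e-05 and 1.32e-06), and between the stages it fell by 0.88 (adjusted p = 0.000749), under 2-fold but past it without the second E12.5 array (-1.06). Ndrg1, a stress-responsive gene, ran the other way. It was lower in E12.5 cushion than in MC3T3 cells (-1.17 ± 0.11, 2.26-fold, adjusted p = 4.49e-05), and its log2 ratios were 0.52 and 0.29 in E17.5 valve, -0.38 and -0.62 in E12.5 cushion and 0.68 on each MC3T3 array. Between the stages Ndrg1 rose by 0.90 (adjusted p = 0.000505), short of 2-fold, with 3 of its 5 probe sets past that size and a further one at 0.99. It reached 1.02 and was called with every array centred on its median, and likewise without the first E12.5 array or without the second E17.5 array.

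Vegfa, the vessel growth factor, had log2 ratios of 0.12 and 0.23 in E17.5 valve, -0.42 and -0.18 in E12.5 cushion and -0.34 and -0.21 in MC3T3 cells. It rose by 0.48 between the stages (adjusted p = 0.00669), under 2-fold, and the cushion and MC3T3 arrays overlapped (difference -0.03 ± 0.10, adjusted p = 0.85, 95% interval -0.27 to 0.22). Its 2 probe sets gave stage differences of 0.95 and 0.01. For E12.5 cushion minus MC3T3 they gave -0.73 and 0.68, so the mean near 0 stood for 2 opposite differences. Car9, a carbonic anhydrase widely used as a sign of hypoxia, was 0.38 higher in E17.5 valve and 0.46 higher in E12.5 cushion relative to MC3T3 cells, under 2-fold. Kdm3a, a histone demethylase that HIF induces, differed from MC3T3 cells by -0.28 in E17.5 valve and -0.26 in E12.5 cushion and was not called.

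**Figure D4:**
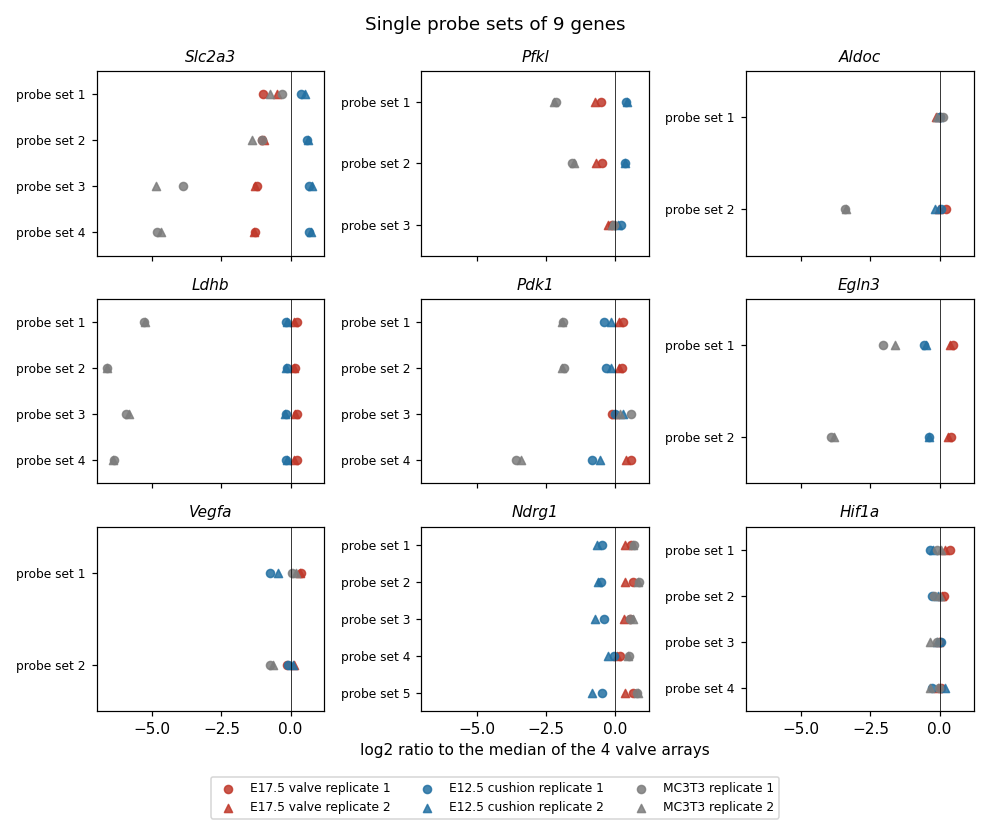
Log2 ratio to the median of the 4 valve arrays for every probe set of 9 genes on the 6 arrays. The 4 Ldhb probe sets lie below -5 in MC3T3 cells, while single probe sets of Slc2a3, Pfkl, Aldoc and Pdk1 show MC3T3 cells close to the valve arrays.

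The 31 genes were read by 69 probe sets, from 1 to 5 a gene, and 12 genes rested on a single one. In E17.5 valve minus E12.5 cushion, 27 probe sets were above 0 and 42 below, and 3 genes had probe sets of both signs. The probe sets of 1 gene, Pdk1, lay at least 2-fold apart there. In E12.5 cushion minus MC3T3, 57 were above 0 and 11 below, and the probe sets of 8 genes lay at least 2-fold apart. In E17.5 valve minus MC3T3, 57 were above 0 and 12 below, and the probe sets of 8 genes again lay at least 2-fold apart, with 5 genes holding both signs. The mean of such a gene stands for unlike values.

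Pathways that branch from glycolysis were described from further gene lists. Of 11 genes that carry pyruvate into the mitochondria, oxidise it or regulate that step, 3 were called higher at E17.5 than at E12.5 and none lower: Mpc1, a subunit of the mitochondrial pyruvate carrier (1.16, adjusted p = 0.000173), Pdp1, the phosphatase that switches the pyruvate dehydrogenase complex on (1.12 ± 0.10, adjusted p = 0.000139), and Pdha1, a catalytic subunit of that complex (1.07, adjusted p = 8.14e-05). Over all genes tested, 4.67 percent were called higher and 1.84 percent lower between the stages. The median of the list was 0.59, where that of all genes tested was -0.14, but the list mixes genes of opposite action. Its 3 further kinases of the Pdk family, which hold the complex back, were not called between the stages. Of these kinases, Pdk2 and Pdk4 lay higher at E17.5 than at E12.5 and Pdk3 lower. Pdk1, of the set, rose by 0.47 between the stages (limma adjusted p = 0.0061), under 2-fold. That mean stood for unlike probe sets, which gave 0.48, 0.44, -0.20 and 1.16. Of 7 genes of the pentose phosphate pathway, Pgd and Tkt were called lower at E17.5, at -1.05 (adjusted p = 6.34e-05) and -1.01 (adjusted p = 0.000244), and none higher. None of the 22 other glycolytic and glucose entry genes, the 8 glycogen genes or the 7 gluconeogenesis genes was called between the stages.

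Of the branching pathways, glycogen genes stood mostly higher in valve tissue than in MC3T3 cells. Of 8 tested, 6 were called higher in E17.5 valve and 7 in E12.5 cushion, with medians of 2.25 and 1.55. Over all genes tested, 9.78 and 10.2 percent were called higher. None of the 8 was called lower, where 7.94 and 10.8 percent of all genes tested were. The higher genes included Pygl and Pygm, which release glucose units from glycogen, and Gbe1, which branches it. Pygm differed by 2.89 at E12.5, and Gbe1 by 2.31 at E17.5 and 1.35 at E12.5. Pygl had log2 ratios of 0.51 and 0.22 in E17.5 valve, -0.26 and -0.29 in E12.5 cushion and -6.57 and -6.64 in MC3T3 cells, where it reached the floor, so its differences are lower bounds.

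Of the 22 other glycolytic and glucose entry genes, 5 were higher and 2 lower in E17.5 valve than in MC3T3 cells. In E12.5 cushion, 6 were higher and 1 lower. Their medians were -0.04 and 0.25. The shares of all genes tested were 9.78 percent higher and 7.94 percent lower at E17.5, and 10.2 and 10.8 percent at E12.5. Pgam2 and Eno3, the muscle isozymes of phosphoglycerate mutase and enolase, were among the higher genes. Pgam2 had log2 ratios of 0.23 and 0.12 in E17.5 valve, -0.13 and -0.18 in E12.5 cushion and was at the floor on both MC3T3 arrays, and Eno3 differed by 2.53 at E17.5 and 1.90 at E12.5. These muscle isozymes moved with the cardiomyocyte markers given above, and the part of muscle cells in the counts was not tested.

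Among 15 regulators of the HIF pathway, 4 were called higher in E17.5 valve and 5 in E12.5 cushion than in MC3T3 cells, with none lower. Over all genes tested, 9.78 and 10.2 percent were called higher, and 7.94 and 10.8 percent lower. Cited1 had the largest differences of the list, 4.31 at E17.5 and 5.47 at E12.5. Between the stages 1 of the 15 was called, Cited1, which was lower at E17.5 (-1.16, limma adjusted p = 0.000503). Of all genes tested, 1.84 percent were called lower and 4.67 percent higher between the stages. Epas1, which encodes HIF-2α and is prominent in endothelium, had log2 ratios of 0.27 and 0.41 in E17.5 valve, -0.42 and -0.52 in E12.5 cushion and -3.22 and -3.39 in MC3T3 cells. Its difference from MC3T3 cells was 3.65 at E17.5 (adjusted p = 4.2e-08) and 2.84 ± 0.10 at E12.5 (adjusted p = 1.52e-07), whereas Hif1a was not called. Endothelial markers had a median log2 ratio of 0.17 and 0.26 in the E17.5 pools, -0.21 and -0.20 in the E12.5 pools and -3.33 and -3.56 on the MC3T3 arrays. Their part in the Epas1 difference was not tested.

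Of 34 further hypoxia targets, 5 were higher and 4 lower in E17.5 valve than in MC3T3 cells, and 7 were higher and 5 lower in E12.5 cushion. Over all genes tested, 9.78 percent were called higher and 7.94 percent lower in the E17.5 comparison, and 10.2 and 10.8 percent in the E12.5 comparison. The medians of these targets were -0.05 and 0.00, where the 7 hypoxia-induced genes of the set had medians of 0.45 and 0.46. Cxcr4, a chemokine receptor (2.52 at E17.5 and 3.14 at E12.5), and Higd1a, a mitochondrial protein (2.25 and 2.36), were higher in valve tissue. Ddit4, an inhibitor of mTOR signalling (-2.24 at E17.5 and -1.28 at E12.5), and P4ha1, a collagen prolyl hydroxylase (-1.07 and -1.22), were lower. Between the stages 1 of the 34 was called, Hmox1, the haem-degrading enzyme (-1.27 ± 0.30, adjusted p = 0.00916), whose values were uneven at E12.5, at 1.26 and 0.24.

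**Figure D5:**
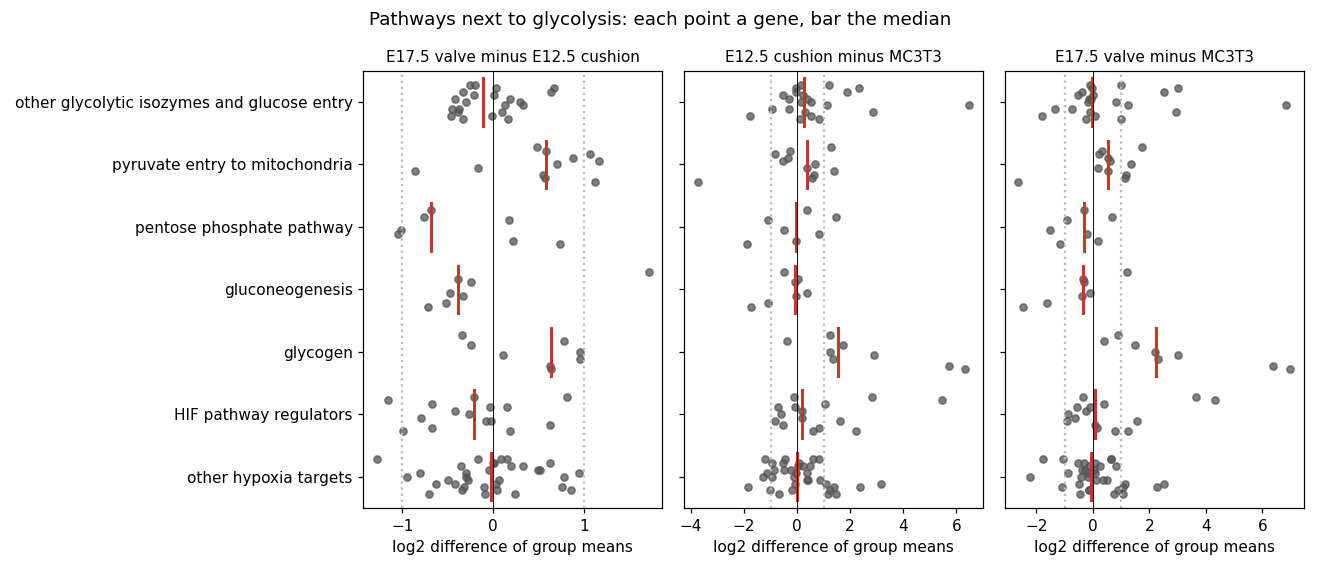
Log2 difference of group means for the genes of 7 further lists (points) with the median of each list (red bar) in the 3 comparisons; dotted lines mark a 2-fold difference, and the horizontal scales differ between panels. Glycogen genes lie mostly to the right against MC3T3 cells, with medians of 2.25 at E17.5 and 1.55 at E12.5, while the other hypoxia targets centre near 0 in each panel.

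The labels of the samples were set beside markers. Osteoblast markers were higher in MC3T3 cells, where their median log2 ratio was 2.16 and 2.19. Of 8 tested, 6 were called lower in each valve tissue than in MC3T3 cells. Over all genes tested, 7.94 percent were called lower in E17.5 valve and 10.8 percent in E12.5 cushion. Since ratios hold no level, it could not be judged from them whether a marker was present in a sample. Hepatocyte markers differed between the replicates of a stage, with medians of 2.54 and 0.16 in the E17.5 pools and -0.18 and -1.14 in the E12.5 pools. Of the 31 genes, 7 were higher on the second E17.5 array than on the first (22.6%), against 40.1% of all genes tested. Ribosomal protein genes, a list added after the values were seen, had medians of -0.33 for E17.5 valve minus MC3T3 and -0.23 for E12.5 cushion minus MC3T3.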

How the data were processed

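Pooled RNA of 3 groups was measured on 6 Affymetrix 430 2.0 arrays. The authors deposited ratios: per the deposited experiment description, arrays were summarised with RMA and treated in GeneSpring GX 7.3, and each of the 45101 probe sets has a median ratio of 1 over the 4 valve arrays, with a floor of 0.01. Per the labels' protocols, 2 amplification kits were used; the sources used here do not say which sample had which, or whether MC3T3 arrays were normalised together with the valve arrays.

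From the ratios, log2 values were averaged per gene over probe sets that name it alone, leaving out 64 control probe sets and 932 that name several genes. Groups were taken from the labels, and the 3 comparisons were fitted on all 6 arrays in limma 3.58.1 (R 4.3.3), with Benjamini-Hochberg adjustment over 18193 genes; calls needed an adjusted p below 0.05 and 2-fold. The script was tested on simulated data. The labels call the duplicates biological, on pooled RNA, so p-values measure the spread between these pools. Fold changes are ratios of geometric means. Differences of one comparison are not independent of the others, since each pair of comparisons shares arrays.

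Every gene of the set is accounted for. Array values are given for genes called between the stages or in both comparisons with MC3T3 cells and for Gapdh, Pkm, Ldha, Hif1a, Vegfa, Egln1 and Egln3; of the further lists, counts and a few called genes are given. The members and lists were chosen with earlier results of these data known. The alternatives tried were centring, thresholds, probe set choices, the variance prior, the samples fitted, a replicate block and leaving out each array.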

Additional observations from a re-analysis of the deposited data

How the results depend on the processing

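With 2 arrays a group, ratios without levels and a floor in MC3T3 cells, small differences and the size of the largest are uncertain. A filter on dim genes and another pseudocount were not run, since ratios hold no level. Of 1392 recomputed differences of single genes, 1313 kept their direction and their side of the thresholds and 57 gained a call. A further 4 lost one in the same direction and 18 turned sign. Among those 18, Slc2a3 in E17.5 valve against MC3T3 cells also lost its call. Dropping the fold requirement by its nature calls each gene under 2-fold with an adjusted p (limma) below 0.05. Such gains numbered 18 between the stages, and 10 in E12.5 cushion and 14 in E17.5 valve against MC3T3 cells. Genes called higher between the stages numbered 0, against 1 with every array centred (Ndrg1), 7 without the fold requirement, 1 without probe sets ending in _x or _s, 2 with the most variable probe set, 2 with every probe set on its own and 0 to 1 with each array left out. Genes called lower between the stages numbered 2, and 13 without the fold requirement. Without it, 26 genes were higher and 2 lower in E12.5 cushion than in MC3T3 cells, and 27 higher and 2 lower in E17.5 valve. Pfkfb4, the gene lower in E17.5 valve, left 0 such genes with centring and 0 to 1 with each array left out.

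The stage comparison called 850 genes higher and 335 lower (71.7% higher), 1065 and 211 with centring (83.5% higher), 1498 and 529 with the most variable probe set, and 3509 and 6231 without the fold requirement. Without the fold requirement, 5341 genes were higher and 5141 lower in E12.5 cushion than in MC3T3 cells, and 3880 higher and 7062 lower in E17.5 valve.

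Apart from that of Slc2a3, the signs that turned were of differences with an adjusted p (limma) of 0.05 or more. With centring, which moves the stage median of -0.14 to 0, Pfkp was 0.04, Pgk1 0.00, Bnip3 0.02, Car9 0.05 and Kdm3a 0.10 between the stages, and Hif1a was 0.00 for E12.5 cushion minus MC3T3. With each array left out, Pfkp ranged from -0.27 to 0.13, Aldoc from -0.06 to 0.16, Adm from -0.48 to 0.01 and Kdm3a from -0.11 to 0.09 between the stages. The same range for E12.5 cushion minus MC3T3 was -0.15 to 0.09 for Vegfa and -0.08 to 0.07 for Hif1a. Slc2a3 in E17.5 valve minus MC3T3 was -0.01 without probe sets ending in _x or _s.

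Same-numbered arrays were not shown to be paired: the correlations of their deviations were 0.15, 0.06 and 0.02. With the replicate number as a block, the counts of called genes were again 0 higher and 2 lower between the stages, 17 and 1 in E12.5 cushion against MC3T3 cells, and 14 and 1 in E17.5 valve against MC3T3 cells. Keeping control probe sets and leaving out genes at the floor were alternatives chosen after seeing the data.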
